A study of Mus musculus with 10 samples.

Results

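The AP-1 family of transcription factors was followed through KP and KPG1 lung tumors of mice, which differ by label in their floxed Glut1 alleles. The family was taken as 10 genes by symbol, namely the Fos genes Fos, Fosb, Fosl1 and Fosl2, the Jun genes Jun, Junb and Jund, the stress-induced factor Atf3 and the small Maf genes Maff and Mafk. All 10 were among the 39017 genes of the deposited count table, each with 1 row, and all 10 passed the filter on low counts that left 15922 genes. The set was chosen by the measured values of the comparison of Glut1-KO with control tumors, whose results were known. The differences of these genes in that comparison are therefore given as a description, and nothing is read from test results for them.

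AP-1 factors bind DNA as pairs that are held together by a leucine zipper. Jun proteins pair with each other or with Fos proteins, while Fos proteins need a partner, and Atf3 and the small Mafs join related pairs, the small Mafs lacking an activating domain of their own. Many of these genes are immediate-early genes whose transcripts appear shortly after growth factor signaling, mutant Ras signaling or mechanical stress, tissue dissociation included.

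The tumors were KP tumors, which carry K-rasLSL-G12D/WT and p53Fl/Fl alleles, and KPG1 tumors, which carry Glut1Fl/Fl in addition. In both groups, on a C57BL/6 background, Cre reached the lung through the trachea in the adenovirus Ad5CC10-Cre, whose promoter is active in CC10-positive club cells of the airway, and tumors were collected 20 weeks and 1 day later. Lung tumors were dissected and dissociated, CD45-positive immune cells were removed with magnetic beads, and polyadenylated RNA of the remaining cells was sequenced. Bulk RNA of this kind cannot tell fewer cells of a type apart from less RNA per cell. The 5 Control libraries were labelled heterozygous fl/wt at Glut1 and male, although the series design speaks of Glut1-WT tumors and the methods allow both kinds of control. The 5 Glut1KO libraries were labelled homozygous fl/fl, replicates 1 to 3 female and replicates 4 and 5 male. A second number in the deposited names, which no label explains, took 2 values among the controls (replicates 1, 2 and 5 against 3 and 4) and 4 among the Glut1KO libraries, where the male replicates shared 1.

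Library totals ran from 35.3 M to 49.8 M counts, and chi-square tests within each group gave no pair of libraries that agreed within sampling noise. Slc2a1, the gene of Glut1, stood at 73.2 to 118 CPM (counts per M counts of the library after TMM scaling) in the controls, at 34.6 to 60.3 CPM in the female Glut1KO libraries, and at 92.4 and 103 CPM in male replicates 4 and 5. The last 2 libraries thus did not show the lower level that the label implies, and the group is called "labelled Glut1-KO" below. Of the markers of other cells, the defining leukocyte gene Ptprc was low in both groups, at 2.76 ± 0.451 CPM in controls and 7.92 ± 2.19 CPM in labelled Glut1-KO libraries (SD, n = 5), while the epithelial marker Epcam stood at 465 ± 96.8 and 426 ± 69.7 CPM and the lung lineage factor Nkx2-1 at 187 ± 40.6 and 235 ± 32.1 CPM.

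Promoter sequence was at hand for 9 of the 10 genes (RefSeq, GRCm38.p6), and the stretches before the start sites of 5 of them are shown because their regulatory elements are well known and because these genes cover the range of patterns described below. Each run is the 150 bases that end at the start site, 5′ to 3′ on the strand of the gene. Capitals mark the CRE-like core TGACG (reverse CGTCA), the full CRE TGACGTCA or the Jun site TGACATCA. The stretches lie at chr12:85473740-85473889 (plus strand, Fos), chr4:95052223-95052372 (minus strand, Jun), chr8:84978749-84978898 (minus strand, Junb), chr1:191183334-191183483 (minus strand, Atf3) and chr15:79347370-79347519 (plus strand, Maff, the second of its 3 start sites).
Fos: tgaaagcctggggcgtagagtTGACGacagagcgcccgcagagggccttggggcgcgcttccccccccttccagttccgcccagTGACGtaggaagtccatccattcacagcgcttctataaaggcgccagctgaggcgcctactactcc
Jun: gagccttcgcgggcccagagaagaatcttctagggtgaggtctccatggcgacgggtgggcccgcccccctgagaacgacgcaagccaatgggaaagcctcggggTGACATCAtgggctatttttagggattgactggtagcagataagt
Junb: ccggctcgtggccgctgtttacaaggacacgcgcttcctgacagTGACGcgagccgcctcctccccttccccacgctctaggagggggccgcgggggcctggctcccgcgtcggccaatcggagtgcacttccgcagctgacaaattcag
Atf3: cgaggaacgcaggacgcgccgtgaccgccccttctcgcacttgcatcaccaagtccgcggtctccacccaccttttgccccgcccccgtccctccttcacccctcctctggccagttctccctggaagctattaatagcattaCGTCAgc
Maff: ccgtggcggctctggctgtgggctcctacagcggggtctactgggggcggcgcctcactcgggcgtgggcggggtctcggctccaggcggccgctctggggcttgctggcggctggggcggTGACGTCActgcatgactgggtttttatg

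Over the 250 bases before each start site, searched on both strands, 6 of the 9 genes held the core TGACG, against 17.8% of the 32851 RefSeq windows of the same length. These were Fos, Fosb, Junb, Atf3, Maff and Mafk. The core started 129 and 66 bases before the start site of Fos, 60 bases before that of Fosb and 106 bases before that of Junb. The full CRE TGACGTCA, which contains the core, was found 29 bases before the second start site of Maff and in 1.55% of all windows. The Jun site TGACATCA, an element known from the Jun promoter itself, began 45 bases before the start of Jun and 45 bases before the third start site of Maff, with a match in 2.93% of all windows. TGANTCA, the classical AP-1 site, was in none of these windows and in 6.75% of all, and the CArG box, the site of serum response factor, was in none of them and in 1.47% of all. The element TATAAA stood 33 bases before the start of Fos (12.4% of all windows), and CCAAT 65 bases before Jun and 36 bases before Junb (33.8%). The windows follow the RefSeq start sites, which are not in every case those of the positions given below. The window of Jund (chr8:70697489-70697738) ends over 1 kb before the gene position, that of Fosl2 lies wholly within an exon of Fosl2 in GENCODE (250 shared bases), and that of Atf3 shares its last 7 bases, which hold its core, with an Atf3 exon. The third window of Maff (95 bases) and those of Mafk (23 bases) and Fosb (6 bases) also share bases with exons of their own gene. These are matches of letters in short windows, and no test was made of their share among 9 genes. Sequence farther upstream was not searched, so an element that is absent here may lie outside the window.

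Some members are short genes and others are not. Jun (chr4:95049034-95052222) and Jund (chr8:70698949-70700616) have no intron, which holds for 2.51% of the 13858 protein-coding genes tested. Fos (chr12:85473890-85477273) spans 3384 bases, Junb (chr8:84974484-84978718) 4235 bases and Atf3 (chr1:191170296-191218039) 47744 bases, against a median of 24361.5 bases. The library kit marks strand, but how strand was used in counting is not given in the sources used here. This bears on genes that share sequence with a gene on the opposite strand, Fosl1 with Ccdc85b (2767 bases), Jund with Gm11175 (919 bases), Jun with Junos (689 bases), Junb with Prdx2 (351 bases), Mafk with Tmem184a (169 bases) and Atf3 with Gm24748 (108 bases). If strand was ignored, the reads of these stretches cannot be told apart between the paired genes. The counts behind the values below ran from 211 (Fosl1) to 60298 (Fos) per library.

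Across the family, 9 of 10 genes had a lower fitted level in labelled Glut1-KO tumors, and 50.7% of all genes tested were on that side. The median log2 fold change of the 10 genes was -0.52, beside -0.00 for all genes tested. Jun, Atf3 and Mafk were lower in each labelled Glut1-KO library than in each control, an absence of overlap in this direction seen for 1.06% of genes. No gene of the whole table passed the threshold of 0.05 on the adjusted p in limma (0%, with 1223 genes at an unadjusted p under 0.05) or in edgeR's quasi-likelihood test, while DESeq2 called 215 genes. With sex as a covariate limma called 3 genes (0.0188%), of which 0 were members. Of the family 6 had an unadjusted limma p under 0.05 in the lower direction, beside 4.02% of all genes, and DESeq2 called 3 as lower, beside 0.659%. Since this comparison entered the choice of the genes, nothing is read from these counts.

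**Figure D1:**
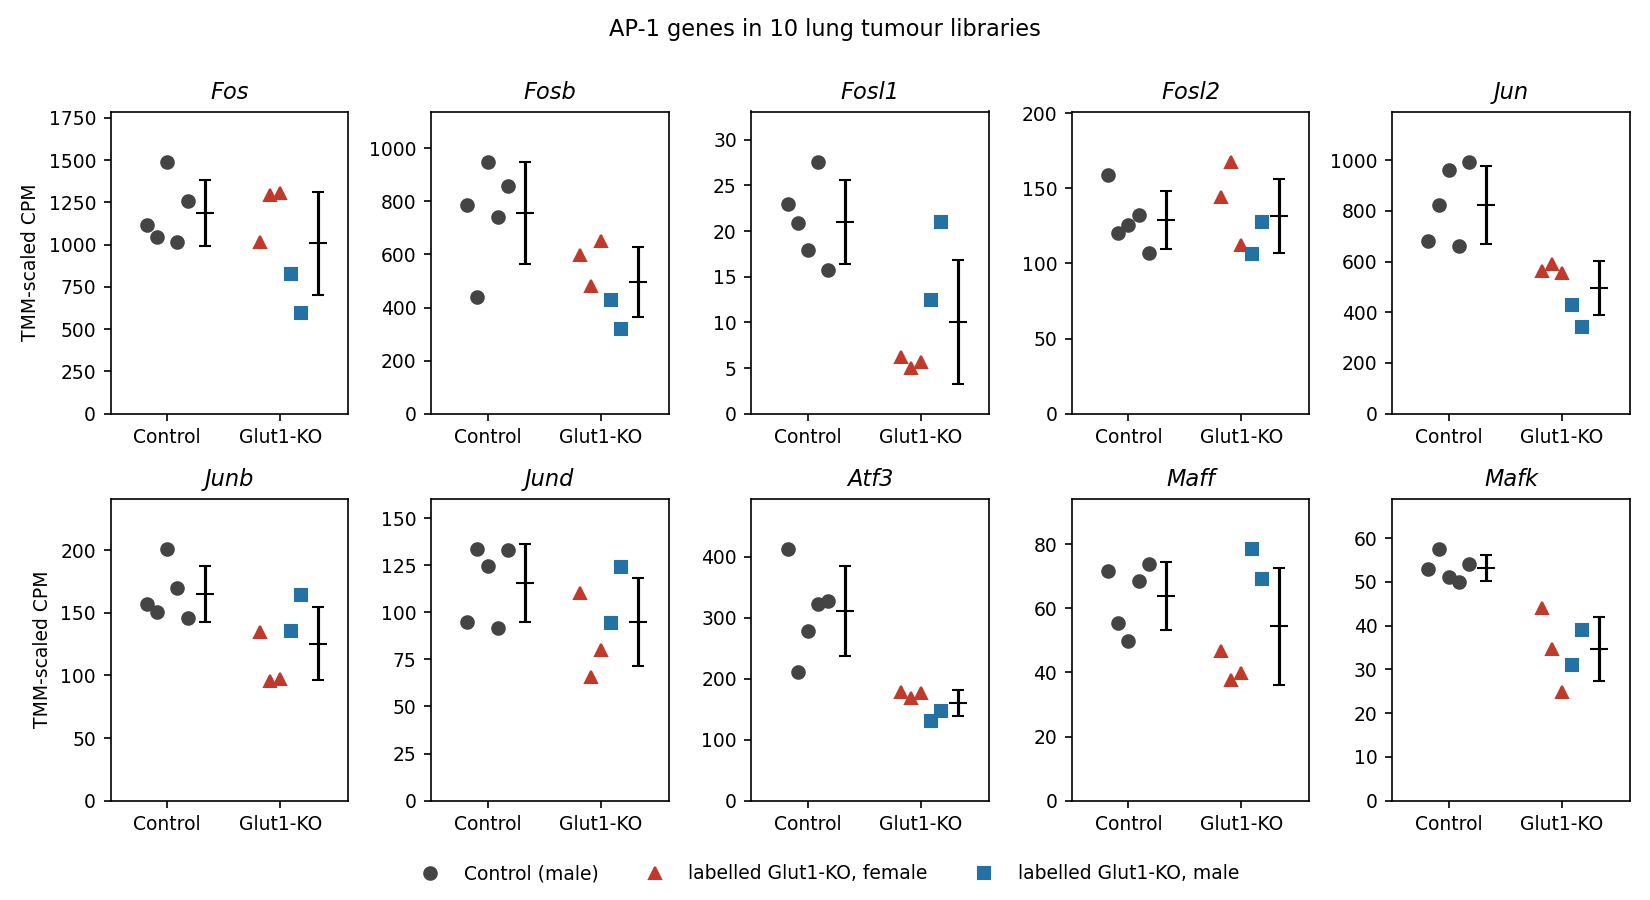
TMM-scaled CPM (linear axis from 0) of each AP-1 gene in the 5 Control libraries and the 5 libraries labelled Glut1-KO, drawn in order of replicate; the bar beside each group is the mean with its SD (n = 5). Jun, Atf3 and Mafk do not overlap between the groups. The 3 female libraries do not overlap the 2 male ones for Fos, Fosb, Fosl1, Jun, Junb, Atf3 and Maff. For Junb this rests on 134.75 against 135.57 CPM. The share of all genes without such an overlap was not computed, so nothing is read from this. In that contrast 18.6% of all genes had an unadjusted limma p under 0.05.

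Fos, which encodes the c-Fos partner of Jun and is the best known immediate-early gene, was the most abundant of the 10. Its level was 1118, 1048, 1489, 1016 and 1260 CPM in Control replicates 1 to 5. The labelled Glut1-KO libraries held 1018, 1291, 1305, 826 and 597 CPM in the same order. The female libraries lay within the range of the controls, whereas both male ones lay below every control. The means were 1186 ± 194 and 1007 ± 305 CPM (SD, n = 5), and the fitted log2 fold change of -0.28 ± 0.22 (SE) rested largely on male replicate 5, without which it was -0.10. With libraries averaged by name number, the log2 fold change of Fos was -0.18.

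Fosb, whose product also pairs with Jun proteins, was at 786, 440, 949, 741 and 860 CPM in the controls. The labelled Glut1-KO libraries held 599, 480, 650, 427 and 320 CPM. Control replicate 2 was the lowest control by far, so that the groups overlapped through that library, and the male libraries were again the lowest. The log2 fold change of Fosb was -0.62 ± 0.24 (SE), and without Control replicate 2 it was -0.79.

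Fosl1, the gene of the Fos relative Fra-1 and known as a target of Ras and ERK signaling in tumors, was the least abundant per length. It stood at 23.0, 20.9, 17.9, 27.6 and 15.7 CPM in the controls and at 6.18, 5.02, 5.68, 12.4 and 20.97 CPM in the labelled Glut1-KO libraries. All 3 female libraries were far below the controls, male replicate 4 was just below them and male replicate 5 lay among them. The log2 fold change of -1.28 ± 0.35 (SE) was the lowest of the family in this fit, but with sex as a covariate it was -0.32, above those of Fos, Fosb, Jun, Atf3 and Mafk. No control was female, so the covariate fit in effect sets the 2 male libraries, in which Slc2a1 was not low, against the controls. The coefficient of variation of the labelled Glut1-KO libraries, 67.5%, was the highest of any member in either group.

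Fosl2, the gene of Fra-2, was at 159, 120, 126, 133 and 107 CPM in the controls and at 144, 168, 113, 106 and 128 CPM in the labelled Glut1-KO libraries. The groups overlapped nearly throughout. It was the only member with a fitted fold change above 0, a log2 value of 0.02 ± 0.15 (SE), which is far smaller than its error and turned negative when Control replicate 5 or labelled Glut1-KO replicate 1 or 2 was left out.

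Jun, the central partner of the family, was at 681, 824, 961, 662 and 993 CPM in the controls. In the labelled Glut1-KO libraries it stood at 564, 589, 555, 429 and 342 CPM. The lowest control lay above the highest labelled Glut1-KO library, and the 2 male libraries, in which Slc2a1 was not low, were the lowest of all 10. The mean was 824 ± 153 CPM in controls and 496 ± 106 CPM in labelled Glut1-KO libraries (SD, n = 5), a log2 fold change of -0.74 ± 0.19 (SE).

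Junb, a Jun relative that can restrain Jun, was at 157, 150, 201, 170 and 146 CPM in the controls and at 135, 95.2, 97.4, 136 and 164 CPM in the labelled Glut1-KO libraries. Female replicates 2 and 3 were the lowest, and male replicate 5 lay inside the control range. Its log2 fold change was -0.42 ± 0.17 (SE).

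Jund, the Jun gene that most tissues express steadily, was at 94.7, 134, 124, 91.7 and 133 CPM in the controls. It stood at 110, 65.6, 80.2, 94.5 and 124 CPM in the labelled Glut1-KO libraries. The groups overlapped for 3 of the 5 labelled Glut1-KO libraries, and the log2 fold change of Jund was -0.30 ± 0.19 (SE), or -0.18 without labelled Glut1-KO replicate 2.

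Atf3, a stress-induced factor of the ATF/CREB branch that pairs with Jun proteins and can repress as well as activate, was at 413, 212, 278, 322 and 327 CPM in the controls. The labelled Glut1-KO libraries held 179, 168, 177, 131 and 146 CPM. All 5 were below the lowest control, and they varied less than the controls did, with a coefficient of variation of 12.9% against 23.7%. The means were 310 ± 73.7 and 160 ± 20.7 CPM (SD, n = 5), and the log2 fold change of -0.94 ± 0.17 (SE) stayed between -1.06 and -0.82 when any 1 library was left out.

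Mafk, a small Maf that pairs with Fos, Nrf2 and Bach proteins, was at 53.0, 57.5, 51.0, 49.96 and 54.1 CPM in the controls and at 44.0, 34.7, 24.8, 31.0 and 39.0 CPM in the labelled Glut1-KO libraries. The controls were tighter for Mafk than for any other member, with a coefficient of variation of 5.56%, and no labelled Glut1-KO library reached them. Its log2 fold change was -0.64 ± 0.15 (SE).

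Maff, the other small Maf, was at 71.5, 55.4, 49.7, 68.6 and 73.8 CPM in the controls and at 46.6, 37.7, 39.9, 78.6 and 69.1 CPM in the labelled Glut1-KO libraries. The 3 female libraries lay below every control, while of the male ones 1 lay above every control and the other within their range. The pooled log2 fold change of -0.28 ± 0.22 (SE) therefore averages over libraries on opposite sides of the control mean, and it was -0.17 without labelled Glut1-KO replicate 2.

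The differences were next read within the labelled Glut1-KO group, since the choice of the genes did not use this contrast. Here 3 female libraries were set against 2 male ones, in a limma fit with 3 groups in which the controls add to the estimate of the spread. No control was female, so sex, the name number and the level of Slc2a1 cannot be told apart in this contrast. Of all genes 8 passed the adjusted threshold (0.0502%), and 0 of the 10 AP-1 genes did. At an unadjusted p under 0.05 there were 5 members, Fos, Fosl1, Jun, Junb and Maff, beside 18.6% of all genes.

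Fosl1 had means of 5.63 CPM in females and 16.7 CPM in males and a log2 difference of -1.56 ± 0.34 (SE, limma adjusted p = 0.111). Maff was at 41.4 CPM against 73.8 CPM, a log2 difference of -0.83 ± 0.20 (SE, limma adjusted p = 0.117). Fos was at 1205 CPM in females and 711 CPM in males, a log2 difference of 0.77 ± 0.21 (SE, limma adjusted p = 0.137). None of these passed in limma or in edgeR's quasi-likelihood test, which called 12 genes in all. DESeq2 called 1196 genes (7.51%) and all 3 of these members, with adjusted p = 0.000113 for Fosl1, 0.00428 for Maff and 0.0241 for Fos. Both male libraries shared the same name number, so the spread between them may be technical. Averaging by name number was not run for this contrast.

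Among the remaining members, Jun and Fosb had log2 differences of 0.57 ± 0.20 (SE, limma adjusted p = 0.189) and 0.63 ± 0.29 (SE, limma adjusted p = 0.280). Junb had a log2 difference of -0.47 ± 0.20 (SE, limma adjusted p = 0.241). For Jund (-0.38 ± 0.26), Atf3 (0.33 ± 0.23), Fosl2 (0.26 ± 0.21) and Mafk (-0.06 ± 0.22, all SE) the limma adjusted p lay between 0.437 and 0.902. Without labelled Glut1-KO replicate 5 the difference of Fosb was 0.40 and that of Jund -0.20, that of Jund was -0.21 without replicate 2, -0.58 without replicate 1 and -0.57 without replicate 4, and that of Fosl2 was 0.13 without replicate 2 or 4 and 0.41 without replicate 3. In direction, 5 members were higher and 5 lower in the female libraries, beside 8123 higher and 7799 lower of all genes tested, and the sign for Mafk changed with the scaling and the filter.

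Markers of other cells also differed in level between these libraries, with 0 of them past the adjusted threshold in limma. Higher fitted levels in the females were found for 10 of 10 endothelial markers (summed 280 to 584 CPM in females against 204 and 300 CPM in males), 12 of 13 leukocyte markers (2087 to 7933 against 1989 and 2484 CPM), 6 of 6 ciliated markers (16.3 to 52.7 against 14.4 and 25.1 CPM) and 5 of 6 club cell markers (2022 to 6846 against 1166 and 4265 CPM). Lower ones were found for 5 of 5 erythroid markers (189 to 232 against 407 and 751 CPM). The leukocyte sums were nearly all Lyz2, which alveolar type 2 cells also express. Its mean was 4597.5 CPM in females and 2168.5 CPM in males, while Ptprc stood at 8.23 and 7.45 CPM. The fibroblast markers divided into 4 and 4 (63.8 to 231 against 198 and 411 CPM) and the epithelial markers into 5 and 5 (46036 to 60660 against 47890 and 62342 CPM). Among the latter was the keratin Krt8, at 699 CPM in females and 1747 CPM in males (log2 difference -1.30 ± 0.29, SE, limma adjusted p = 0.112), named after its values were seen. Krt18, Krt19, Cdh1 and Sftpb also had lower fitted levels in the females, while Sftpc, Sftpa1, Lamp3, Nkx2-1 and Epcam had higher ones. The part of these markers in the differences of the AP-1 genes was not tested.

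**Figure D2:**
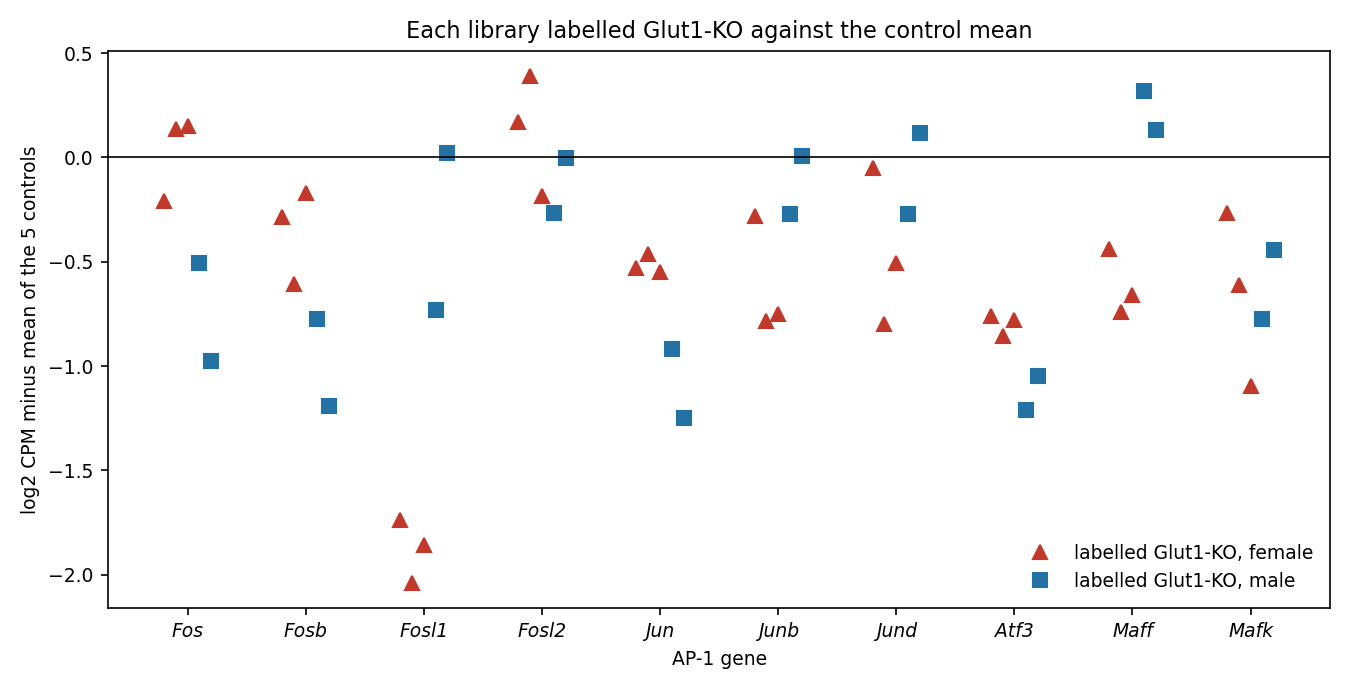
Log2 CPM of each library labelled Glut1-KO minus the mean log2 CPM of the 5 controls, per AP-1 gene; triangles are female and squares male libraries. All 5 libraries lie below 0 for Fosb, Jun, Atf3 and Mafk, and the female and male libraries of Maff fall on opposite sides of 0.

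Each sex was also set against the controls on its own. With male libraries only (2 against 5), in which Slc2a1 was not low, the log2 fold change was -1.13 for Atf3, -1.08 for Jun, -0.99 for Fosb, -0.74 for Fos and -0.60 for Mafk. It was near or above 0 for Jund (-0.07), Junb (-0.13), Fosl2 (-0.13) and Maff (0.22), and -0.32 for Fosl1. With the female libraries only (3 against 5), in which Slc2a1 was low, it was -1.87 for Fosl1, -0.79 for Atf3, -0.66 for Mafk, -0.61 for Maff, -0.60 for Junb, -0.51 for Jun and -0.45 for Jund. Fos, at 0.03, and Fosl2, at 0.13, were above 0 there, and Fosb was at -0.35. Lower values were fitted for 9 of 10 members in the males, where 51.6% of all genes were lower, and for 8 of 10 in the females, where 50.3% were. The subsets share their controls, and for Atf3, Jun and Mafk, whose groups do not overlap, the direction in each subset was fixed by that. For Fosl1 the value was larger in size in the female subset and for Fos in the male one. The female subset compares females with male controls, so sex and genotype cannot be told apart in it.

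Levels were compared between the genes per length, as CPM per kb of exon. In the controls the order was Fos (504), Jun (259), Atf3 (144), Fosb (121), Junb (71.6), Jund (69.2), Maff (24.6), Mafk (13.6), Fosl2 (13.3) and Fosl1 (10.3). Neighbors kept this order in all 5 controls except for Atf3 and Fosb (4 of 5), Junb and Jund (3 of 5) and Mafk and Fosl2 (3 of 5), which their spread does not separate. In the labelled Glut1-KO libraries Fos (428 CPM per kb) and Jun (156 CPM per kb) led again. Fosb (79.3 CPM per kb) then lay beside Atf3 (74.3 CPM per kb, in this order in 3 of 5 libraries), and Fosl2 (13.6 CPM per kb) lay above Mafk (8.90 CPM per kb) in all 5. Fosl1, at 4.95 CPM per kb, was again the last by mean, and lay below Mafk in 4 of 5 libraries.

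Summed over the 10 genes, the length-scaled level was 1231 ± 153 CPM per kb in controls and 897 ± 154 CPM per kb in labelled Glut1-KO libraries (SD, n = 5), with each labelled Glut1-KO library below each control. Fos made up 40.9% ± 2.06 of this sum in controls and 46.8% ± 7.09 in labelled Glut1-KO libraries, and Jun 20.98% ± 2.69 and 17.2% ± 1.15. The share of Atf3 was 11.8% ± 2.98 and 8.37% ± 0.942. By branch, the Fos genes took 52.6% ± 2.34 and 57.8% ± 6.83, and the Jun genes 32.5% ± 3.52 and 30.3% ± 4.67, ranges that overlap. Within the Jun branch, Junb per 100 of Jun was 20.4 to 35.5 in the controls, 33.1, 22.4 and 24.3 in the female and 43.7 and 66.6 in the male labelled Glut1-KO libraries, both male values above every control. Jund per 100 of Jun was 24.8 to 31.0 in the controls and 37.4, 21.3 and 27.6 in the female libraries. It was 42.1 and 69.2 in the male ones, again above every control, and Jun itself was lowest there. Within the Fos branch, Fosl1 per 100 of Fos was 1.39 to 3.14 in the controls, 0.703, 0.449 and 0.504 in the female libraries, all below every control, and 1.74 and 4.07 in the male ones.

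**Figure D3:**
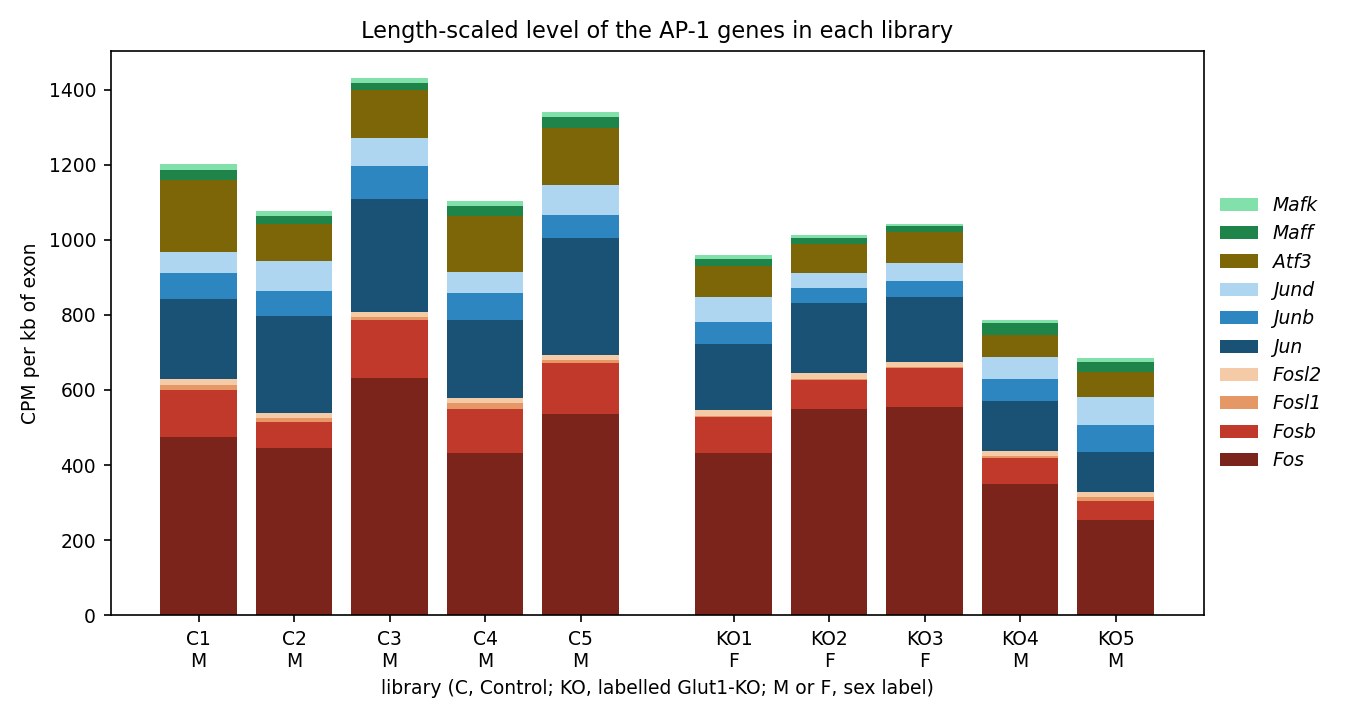
CPM per kb of exon of the 10 AP-1 genes, stacked by gene (linear axis from 0), in each Control (C) and labelled Glut1-KO (KO) library, with the sex label beneath. The stacks of the controls reach 1077 to 1432 CPM per kb and those of the labelled Glut1-KO libraries 686 to 1042 CPM per kb.

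Across the 10 libraries, deviations of log2 CPM from the group mean showed which members varied together. They went together for Fos and Jun (Pearson r = 0.88) and for Fos and Fosb (r = 0.74), and opposite ways for Fos and Fosl1 (r = -0.94), Jun and Fosl1 (r = -0.93) and Fos and Maff (r = -0.79). Fosl1 went with Maff (r = 0.77) and Junb (r = 0.73). The points share libraries and depth, and the split between female and male labelled Glut1-KO libraries enters each of them. Of all genes tested, those whose deviations were most like Fos were Gsk3b (r = 0.99), Dzip3, Fut8, Zfp597 and Ccdc50 (each r = 0.98). The closest gene was Zfp3 for Fosb (r = 0.99), Gipc1 for Fosl1 (r = 0.98), Rpa1 for Fosl2 (r = 0.95), Gm10286 for Jun (r = 0.97), Tpst2 for Junb (r = 0.97), Gm26951 for Jund (r = 0.96), Tifa for Atf3 (r = 0.92), S100a16 for Maff (r = 0.98) and Pars2 for Mafk (r = 0.98). These are the highest of 15922 genes over 10 libraries. None of them is an AP-1 gene.

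The genes around the family were read from gene lists, none of which held a gene past the adjusted threshold in limma. DESeq2 called 12 of the 124 genes tested in these lists, beside 1.35% of all genes, among them Mapk13, Edn1, Mmp12, Klf2, Cyr61 and Gadd45b of those named below, and limma with sex as a covariate called Dusp1 and Rps6ka4, beside 0.0188% of all genes. The lists were chosen with earlier results known, so their counts are descriptions. Of the other bZIP genes, partners and relatives such as the Batf, Nfe2 and Bach genes, 16 of 19 were tested, which divided into 8 above and 8 below 0 around a median log2 fold change of -0.00. The 3 smallest p belonged to Nfe2 (log2 0.83 ± 0.41), Mafg (log2 -0.24 ± 0.12), a further small Maf, and Batf2 (log2 1.00 ± 0.57, all SE), with limma adjusted p from 0.677 to 0.718. Nfe2 and Batf2 were under 1 CPM on average in the controls.

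Upstream of AP-1 lie the MAP kinases and the factors that switch Fos and Jun on, such as Srf, Elk1 and Mef2 genes. Of 35 tested, 13 had a higher and 22 a lower fitted level (median log2 fold change -0.05), and at an unadjusted p under 0.05 there were 3 higher and 4 lower, beside 583 and 640 of the 15922 genes. Mapk13, a p38 kinase, was at 65.0 ± 13.3 CPM in controls and 104 ± 19.4 CPM in labelled Glut1-KO libraries (SD, n = 5), a log2 fold change of 0.68 ± 0.17 (SE, limma adjusted p = 0.363). Rps6ka4, the kinase MSK2, was at a log2 fold change of 0.60 ± 0.20, and Elk3, a partner of serum response factor, at -0.47 ± 0.19 (SE, limma adjusted p = 0.513 and 0.615). Rps6ka4 stood at 53.7 to 69.2 CPM in controls and at 69.1 to 75.0 CPM in female labelled Glut1-KO libraries. In the male ones it stood at 119 and 138 CPM. Of 12 genes of ERK output, 4 lay above and 8 below 0 (median -0.10). The ERK phosphatases Dusp5 (log2 -0.87 ± 0.27) and Dusp6 (log2 -0.49 ± 0.21) and the ETS factor Etv4 (log2 -0.53 ± 0.19, all SE) had the smallest p of the list, with limma adjusted p from 0.458 to 0.642.

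Among 30 genes commonly given as targets of AP-1, 7 lay above and 23 below 0, and their median log2 fold change was -0.41 beside the -0.00 of all genes. Their mean standardized log2 level was -0.17 to 0.75 in the controls, -0.16, -0.61 and -0.75 in the female labelled Glut1-KO libraries and 0.18 in both male ones. Female replicate 1 thus lay inside the control range, as did the male libraries. In the male libraries Fos, Fosb, Jun and Atf3 were lowest, while Fosl1, Junb, Jund and Maff had higher means than in the female ones. Whether the targets follow any member was not tested. At an unadjusted p under 0.05, 6 were lower, beside 4.02% of all genes, and 1 was higher. Edn1, the gene of endothelin 1, was at 24.5 ± 9.82 CPM in controls and 9.50 ± 3.98 CPM in labelled Glut1-KO libraries (SD, n = 5), a log2 fold change of -1.35 ± 0.36 (SE, limma adjusted p = 0.404). Tnc, the matrix protein tenascin C, did not overlap between the groups, with a log2 fold change of -2.22 ± 0.74 (SE, limma adjusted p = 0.513), but Control replicate 3 stood at 575 CPM and the other controls at 33.0 to 77.5 CPM. Mmp12, a macrophage elastase, was the one higher at an unadjusted p under 0.05, with a log2 fold change of 1.04 ± 0.35 (SE, limma adjusted p = 0.520). In the female against the male labelled Glut1-KO libraries, 7 of the target genes lay above and 23 below 0 (median log2 difference -0.58), beside 8123 above and 7799 below of all genes tested.

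The most one-sided of the 5 pathway lists was that of other immediate-early genes and genes induced by dissociation of tissue, such as Egr, Klf, Ier and heat shock genes. Of 31 tested, 30 were lower and 1 higher, the median log2 fold change was -0.41, 13 were lower at an unadjusted p under 0.05 (4.02% of all genes were) and 7 did not overlap between the groups in that direction (1.06% of all genes). Klf2, a zinc finger factor of early responses, was at 49.4, 48.8, 51.6, 44.0 and 62.6 CPM in the controls and at 25.7, 26.8, 32.4, 20.2 and 21.7 CPM in the labelled Glut1-KO libraries. It did not overlap between the groups, and its log2 fold change was -1.02 ± 0.15. Cyr61, a matrix protein induced by serum, was at -1.01 ± 0.16, and Gadd45b, a stress-induced gene, at -0.82 ± 0.15 (SE, limma adjusted p = 0.230 for each of the 3). Egr1, which like Fos answers serum response factor, was at 1494 ± 212 and 1289 ± 401 CPM, a log2 fold change of -0.26 ± 0.21 (SE), close to the -0.28 of Fos. Egr1 was named for this likeness after its values were seen. All tumors were dissociated before RNA was taken, and the part of dissociation in the levels of the AP-1 genes was not tested.

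**Figure D4:**
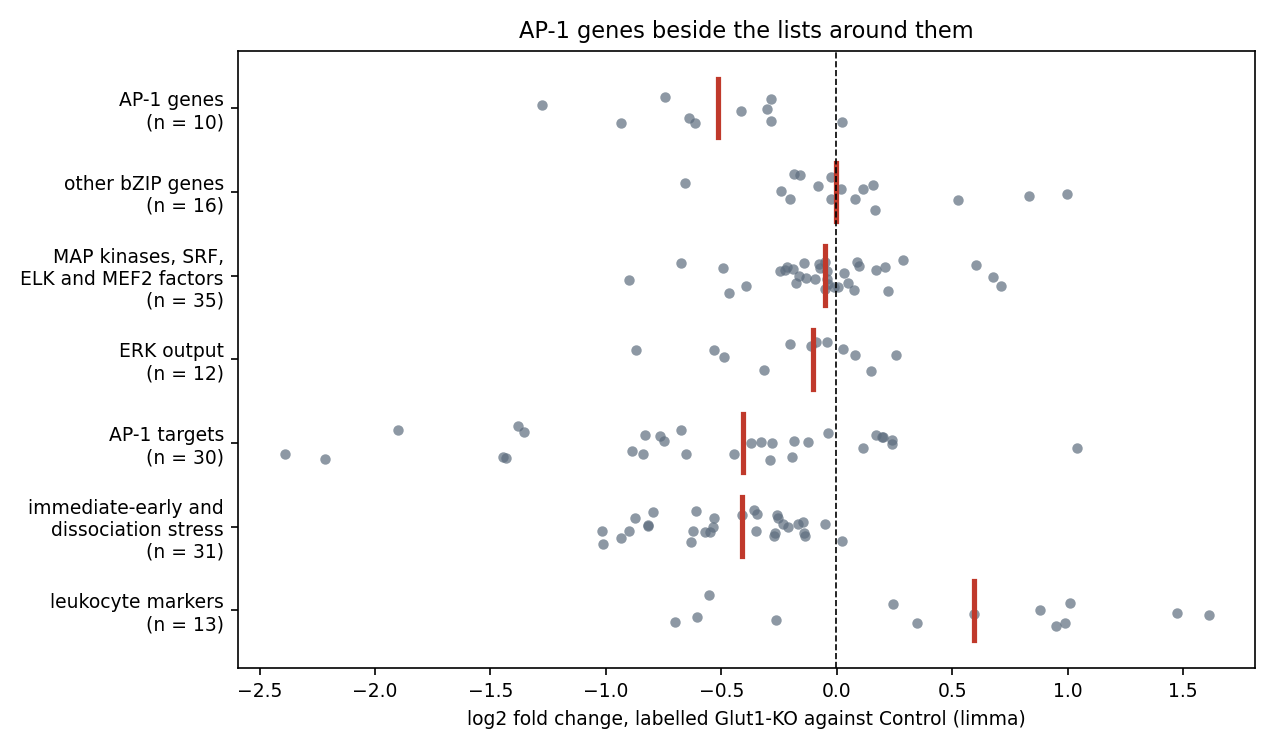
Log2 fold change (limma, labelled Glut1-KO against Control) of each gene of the AP-1 family and of the lists around it; points are genes, spread vertically for sight only, red bars are list medians and the dashed line is the median of all genes tested. The medians of the AP-1 genes (-0.52), AP-1 targets (-0.41) and immediate-early and dissociation genes (-0.41) lie left of the line, and those of the other bZIP genes (-0.00) and upstream genes (-0.05) lie close to it.

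In labelled Glut1-KO against Control, markers of other cells also had shifted fitted levels, with 0 past the adjusted threshold in limma. Of 13 leukocyte markers tested 9 were higher and 4 lower, and 5 did not overlap between the groups in the higher direction, beside 0.798% of all genes. They were led by Ptprc (log2 1.47 ± 0.25), Fcer1g (log2 1.61 ± 0.31) and Coro1a (log2 1.01 ± 0.27, all SE, limma adjusted p from 0.230 to 0.396). Their summed level was 1023 to 11363 CPM in controls and 1989 to 7933 CPM in labelled Glut1-KO libraries, nearly all of it Lyz2, which alveolar type 2 cells also express. All 10 endothelial markers had a fitted level above that of controls (limma adjusted p from 0.643 to 0.816, summed 118 to 442 and 204 to 584 CPM). The 6 ciliated markers tested had one below it (summed 10.2 to 254 and 14.4 to 52.7 CPM), as had 5 of 6 club cell markers (1786 to 10021 and 1166 to 6846 CPM), 6 of 8 fibroblast markers (94.4 to 370 and 63.8 to 411 CPM) and 4 of 5 erythroid markers (237 to 1462 and 189 to 751 CPM), while the 10 epithelial markers divided into 5 and 5. Of all genes tested, 50.7% were below. Their part in the levels of the AP-1 genes was not tested.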

How the data were processed

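Polyadenylated RNA of 10 CD45-negative mouse lung tumor fractions was sequenced by the authors as single-end reads from stranded libraries. Per the labels and methods, reads were trimmed with Cutadapt and aligned to mm10 with HISAT2, and the submitters' processing notes name featureCounts 1.4.4. The annotation used for counting is not given in the sources used here. The deposited counts are raw whole-number reads per gene, and the combined table equalled the 10 deposited count files in all 10 columns. The authors' table of log2 values was not used. Groups came from the sample titles.

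Genes were kept with edgeR 4.0.16 filterByExpr (minimum count 10, minimum total 15), and TMM factors were computed. Log2 values with voom weights (0.5 added to each count) went into limma 3.58.1 (R 4.3.3), with Benjamini-Hochberg adjustment over all 15922 genes tested and a threshold of 0.05. Levels are TMM-scaled CPM, and depth was 35.3 M to 49.8 M counts. P-values measure the spread between libraries, which may be technical where name numbers are shared. If a name number stands for a mouse, which no label says, n = 5 counts libraries and not mice. Exon lengths and positions came from GENCODE M21 (96.6% of gene identifiers found), promoters from RefSeq. The members, and the lists of other bZIP, upstream, ERK output, target, dissociation and cell marker genes, were chosen with earlier results of these data known. Named were all members, Slc2a1, in each of the 5 pathway lists the 3 genes with the smallest p, and the genes closest to a member by correlation. The same rule named the leukocyte markers. Other marker lists are given by counts and summed levels, and Egr1, Lyz2 and the epithelial markers were named after their values were seen. Alternatives covered the tool (edgeR quasi-likelihood, DESeq2 1.42.0), scaling, filters, the replicate block, sex as a covariate, subsets by sex, averaging by name number, and leaving out each library. The fit was tested on simulated data.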

Additional observations from a re-analysis of the deposited data

Results flagged for a closer look

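In the 24 groups of 5 values examined for a value that stands apart, 1 exceeded the limit of 0.71 of the group's range, and chance gives about 5% of groups. It was the library total of Control replicate 2, 49.8 M counts, whose gap to the other controls (40.1 M to 41.4 M) made up 0.863 of the range. Without that library the log2 fold change of Fosb was -0.79 and that of Atf3 -1.06, in place of -0.62 and -0.94.

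Maff was noted because every female library labelled Glut1-KO lay below the control mean and every male one above it. The mean deviations on the log2 scale were -0.61 in females and 0.22 in males, a difference of -0.84. The difference itself had a limma adjusted p of 0.117 over all genes.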

How the results depend on the processing

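In the comparison of labelled Glut1-KO with Control, genes past the threshold numbered 0 in the reported fit, 215 with DESeq2 (110 higher, 105 lower), 3 with sex as a covariate, 1 in male libraries only, 9 with female Glut1KO libraries only, and 0 to 1 when 1 library was left out, the 1 appearing without Control replicate 3. Averaging libraries by name number gave 0 as well, with 819 genes at an unadjusted p under 0.05 in place of 1223. Of the 124 genes tested in the 5 pathway lists the count was 0, with 12 under DESeq2 (2 higher, 10 lower), 2 with sex as a covariate (Dusp1 and Rps6ka4), and 0 to 1 when 1 library was left out (Cyr61, without Control replicate 3). Female against male labelled Glut1-KO libraries gave 8 genes, 1196 with DESeq2 (531 higher, 665 lower), 4 with the replicate block, and 5 to 10 when 1 library was left out, with 5 each without Control replicates 1, 3 and 4. The cause of these differences was not tested.

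Of the log2 fold changes of members, 194 alternative values kept the direction and moved by less than the replicate SD, 8 moved further and 8 changed sign. With sex as a covariate, or in male libraries only, Fos moved to -0.74, Fosl1 to -0.32, Jun to -1.08 and Junb to -0.13, Fosl2 turned to -0.13 and Maff to 0.22. Fos was 0.032 with female libraries only. Fosl2 was -0.041 without Control replicate 5, and -0.014 and -0.069 without labelled Glut1-KO replicates 1 and 2, in a range up to 0.10 over all libraries left out. The female minus male difference of Mafk was 0.036 with library totals and 0.045 with the filter on average TPM, and ran from -0.26 to 0.16 when 1 library was left out, above 0 without labelled Glut1-KO replicate 3 (0.16) or 5 (0.096). Under library totals the median of all genes in that contrast was 0.11 in place of 0.01.

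With the replicate number as a replicate block, labelled Glut1-KO against Control gave 0 genes. Deviations of same-numbered libraries correlated between -0.13 and 0.20, and 1 of 10 libraries correlated best with its own number, so the numbers do not pair the libraries. Fosl1, at 211 counts in its lowest library, is the member that depth limits most.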
